A study of Mus musculus with 3 samples.

Results

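The genes described here are 33 S-phase and DNA replication genes, taken by symbol from the 19059 genes of the deposited count matrices, and all 33 were found. The rule that names them uses no expression value. By role they were 9 genes that license replication origins, 15 genes of the replication fork, 4 genes that supply nucleotides and 5 genes of the chromatin that is rebuilt behind the fork. They were followed across immune cell classes of the newborn mouse liver with normal, heterozygous and null alleles of Pex2, whose product sits in the peroxisome membrane and is needed to bring enzymes into that organelle.

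A cell licenses its origins by loading the ring of Mcm proteins onto DNA in G1, a step that Orc1, Cdc6 and Cdt1 carry out. In S phase the ring is switched on by Cdc45, the Gins complex and Mcm10, polymerases copy the strands, and the sliding clamp Pcna and its loader, the Rfc complex, hold the machinery in place. Most of these genes are transcribed in waves under E2F factors at the G1 to S transition, whereas genes of mitosis follow later. The newborn liver is still a site of blood formation, so many of its leukocyte precursors divide.

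All mice were at postnatal day 0. Live cells of the liver were sorted for CD45, which marks leukocytes, then fixed, and their RNA was read cell by cell through gene-specific probes. There was 1 library each for pex2+/+ (WT), pex2-/+ (Het) and pex2-/- (KO). The sources used here do not state how many animals went into a library. With 3 libraries and no replicate, differences were not tested. The difference between the labelled Het and labelled WT libraries is the only gauge of how far libraries differ apart from the null genotype. It is an imperfect gauge, since these libraries also differ in labelled genotype. Intervals are at 95% and cover counting error only.

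The libraries held 9600, 8000 and 8245 barcodes (labelled WT, then labelled Het, then KO, an order kept throughout). Their totals were 96629431, 144589956 and 186295183 UMIs (unique molecular identifiers, each standing for a captured molecule), with medians of 8218.5, 15558.5 and 19348 UMIs per cell. Pex2 gave 2283, 7704 and 2 UMIs, or 23.6, 53.3 and 0.0107 CPM (UMIs per 1000000 of the library or class total). Its loss matched the KO label, but labelled Het lay above labelled WT, against the order of the labels, so those libraries are called by their labels. The Y-linked gene Ddx3y gave 7956, 2 and 3 UMIs, so labelled WT alone expressed it. Ratios over labelled WT thus also compare libraries that differ in Y-linked expression, and KO over labelled Het does not. Ptprc, which encodes CD45, was at 249, 250.1 and 311 CPM, and 6 hepatocyte markers together were at 4.07, 4.85 and 6.99 CPM. All barcodes of a library ended in 1 kind of 8-base tail, which differed between libraries, so no whole barcode could be shared. Of the 16-base cell parts, 961 to 1184 were shared by a pair of libraries. Cells were clustered without the 33 genes and without other cell cycle genes, and a cluster was called like a cell type from its markers.

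Promoters of the members give a sequence that the rule did not use. Of the 33 genes, 28 were matched to a RefSeq start (GRCm38.p6), and those not matched were Mcm4, Gins1, Gins2, Rfc2 and Pole. The letters of an E2F site were searched on both strands as TTTCCCGC, TTTCGCGC, TTTGCCGC and TTTGGCGC, from 250 bases before to 50 bases after the start. They occurred in 12 of 28 members (42.9%), against 2.60% of 27025 genes and 1 of 32 mitosis genes. The 12 were Mcm3, Mcm5, Mcm6, Mcm7, Cdc6, Cdt1, Orc1, Rfc3, Pola1, Lig1, Uhrf1 and Dnmt1. They include 7 of the 9 licensing genes, and of the rest Mcm2 held no match and Mcm4 was not searched. A different motif, the CHR element searched as TTTGAA, occurred in 4 of 28 members (14.3%), against 20.2% of genes and 25 of 32 mitosis genes (78.1%). The CCAAT box, searched as CCAAT, separated the lists little, with 19 of 28 members (67.9%) and 23 of 32 mitosis genes (71.9%), against 41.1% of genes. A match is a run of letters and does not show that a factor binds there.

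The 250 bases before the start are shown for 1 gene of the Mcm ring, 1 ring loader, 1 clamp loader subunit and 1 chromatin gene, each with E2F letters in capitals on either strand. The Mcm6 window (chr1:128359706-128359955, minus strand) holds 3 matches, at 110, 106 and 47 bases before the start, and the pair farther from the start overlap. The Cdc6 window (chr11:98907901-98908150, plus strand) holds 1 match, 138 bases before the start. The Rfc3 window (chr5:151651209-151651458, minus strand) holds 1 match, 10 bases before the start. The Uhrf1 window (chr17:56304063-56304312, plus strand), the second of its 2 listed promoters, holds 1 match, 185 bases before the start.
Mcm6: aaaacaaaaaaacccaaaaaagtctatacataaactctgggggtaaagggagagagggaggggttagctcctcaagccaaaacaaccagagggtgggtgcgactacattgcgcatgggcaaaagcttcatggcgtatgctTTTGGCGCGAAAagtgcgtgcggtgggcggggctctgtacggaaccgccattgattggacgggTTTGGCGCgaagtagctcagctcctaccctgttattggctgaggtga
Cdc6: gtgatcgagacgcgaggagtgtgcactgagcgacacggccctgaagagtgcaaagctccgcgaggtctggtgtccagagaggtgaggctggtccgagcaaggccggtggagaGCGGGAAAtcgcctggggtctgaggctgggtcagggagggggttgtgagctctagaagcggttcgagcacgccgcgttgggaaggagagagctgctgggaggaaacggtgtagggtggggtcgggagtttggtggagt
Rfc3: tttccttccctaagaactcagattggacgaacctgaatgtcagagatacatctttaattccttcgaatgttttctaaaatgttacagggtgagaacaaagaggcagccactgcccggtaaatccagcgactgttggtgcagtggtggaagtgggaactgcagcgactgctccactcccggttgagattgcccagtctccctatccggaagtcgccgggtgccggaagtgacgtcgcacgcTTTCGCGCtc
Uhrf1: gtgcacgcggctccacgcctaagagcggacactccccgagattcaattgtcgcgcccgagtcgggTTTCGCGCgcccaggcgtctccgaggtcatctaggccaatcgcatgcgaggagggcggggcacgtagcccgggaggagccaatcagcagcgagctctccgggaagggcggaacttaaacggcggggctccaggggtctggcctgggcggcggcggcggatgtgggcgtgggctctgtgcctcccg

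Over all sorted cells, where cell composition and expression act together, most members were somewhat lower in KO. The median log2 ratio of the 33 genes was -0.18 for KO over labelled WT and -0.31 for KO over labelled Het, beside -0.14 and -0.16 for all 8342 genes with a mean of at least 10 CPM. KO lay below both other libraries for 24 of 33 members, where 54.9% of all genes did, and above both for 2, where 28.4% did. In what follows a gene is called where KO lies at least 1.5-fold past both other libraries on the same side. Only 3 members were called lower over all cells, Uhrf1, Slbp and Pola2, and 0 higher, against 13.6% of genes called lower and 2.73% called higher. Under TMM factors or median-of-ratios size factors 1 of them, Uhrf1, was called lower, so the calls of Slbp and Pola2 depend on the scaling. Uhrf1, which brings the maintenance methylase Dnmt1 to newly copied DNA, was at 360, 359 and 183 CPM. Slbp, which binds the stem-loop of histone messenger RNAs, was at 310, 289 and 193 CPM. Pola2, a subunit of the polymerase that starts new strands, was at 80.1, 79.8 and 48.3 CPM. For all 3 genes the 2 control libraries were close together and KO was lower on the CPM scale. These small medians depend on the scaling, since TMM factors moved the median of all genes to 0.14 and 0.18 and those of the members to 0.11 and 0.03.

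The classes differed from this average, and the B lineage differed most. In B-lineage-like cells (1898, 1262 and 888 cells, or 20.3%, 16.2% and 11.2% of cells kept) all 33 members were lower in KO than in both other libraries, where 41.9% of genes were (42.1% were above both). KO was at least 1.5-fold lower for 28 of 33, against 12.0% of 8720 genes, and 0 members were called higher, against 9.4%. The medians were -1.0 against labelled WT and -1.13 against labelled Het, beside 0.01 and -0.00 for all genes, while labelled Het over labelled WT was 0.12. Median depth in this class was 4070, 7308 and 5646 UMIs per cell, so KO lay between the controls.

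**Figure D1:**
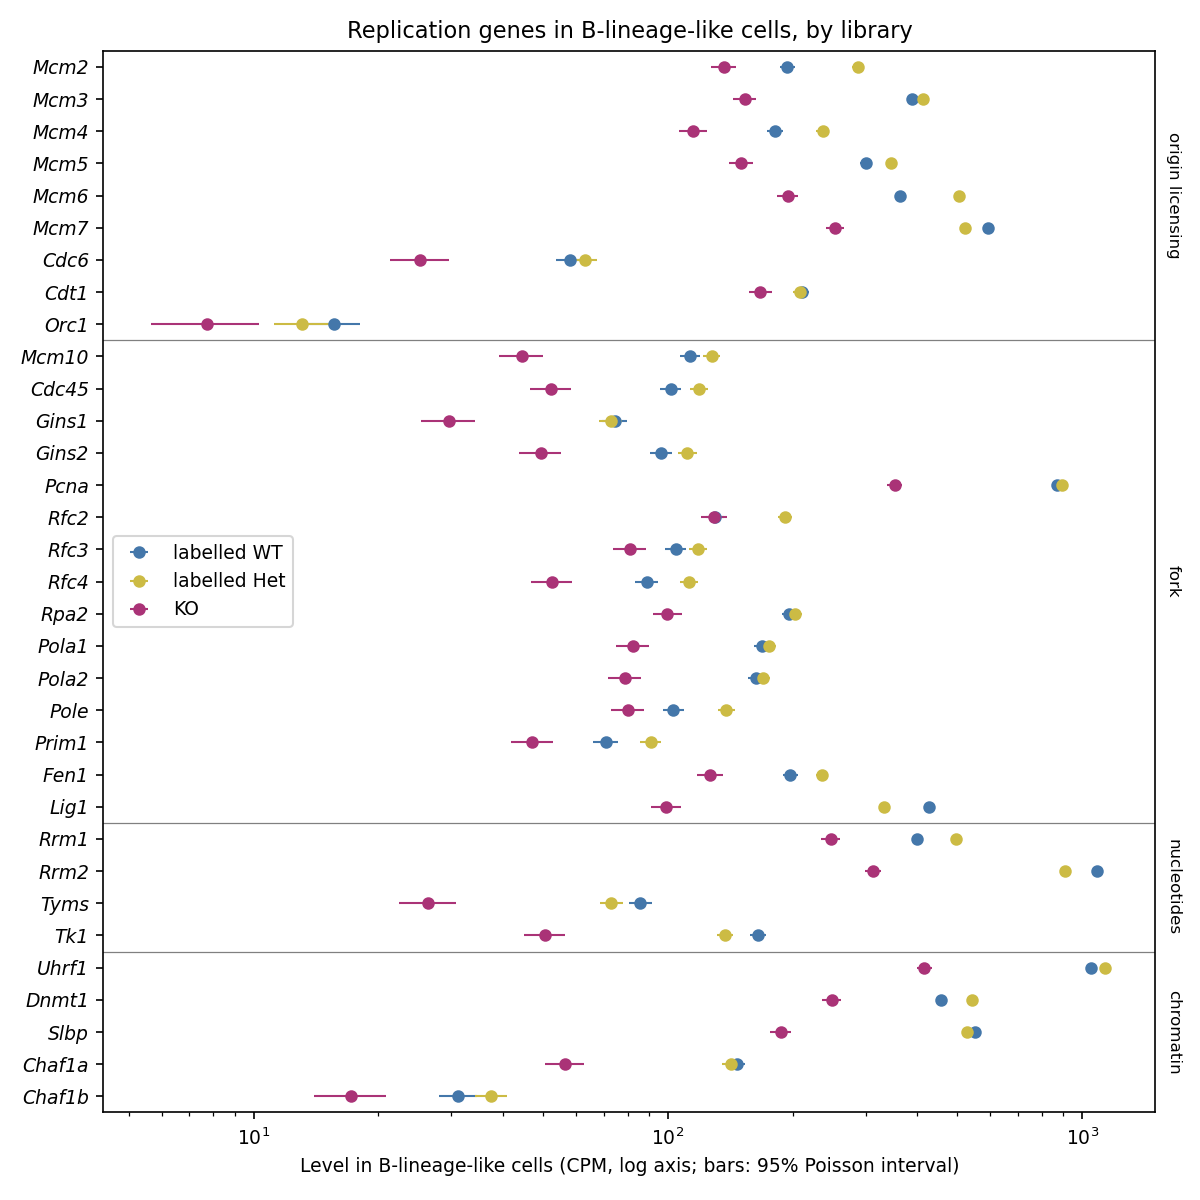
Level of each of the 33 replication genes in B-lineage-like cells in the 3 libraries, in CPM on a log axis, grouped by role. Points are class sums and bars are 95% Poisson intervals, which cover counting error only. KO is the lowest point for every gene, from Lig1 at 99.0 CPM against 426 and 333 to Rfc2 at 129 against 130 and 192.

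Genes of the nucleotide supply stood lowest among the roles, with medians of -1.70 and -1.45 and 4 of 4 members called. Rrm2, the small subunit of ribonucleotide reductase, was at 1086, 907 and 312 CPM, or 3.48- and 2.90-fold lower in KO. Tk1, which salvages thymidine, was at 165, 137 and 50.4 CPM. Tyms, which makes thymidylate, was at 85.9, 73.0 and 26.4 CPM. Each of these 3 genes was also lower in labelled Het than in labelled WT, by a much smaller step than KO. Rrm1, the large subunit that pairs with Rrm2, differed least of the 4, at 400, 495 and 247 CPM.

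Among the 15 fork genes 12 were called, with medians of -0.96 and -1.10, and Lig1 led all members. Lig1, the ligase that joins Okazaki fragments, was at 426, 333 and 99.0 CPM. The KO level was 0.232 times labelled WT (0.213 to 0.253) and 0.297 times labelled Het (0.272 to 0.324). Pcna, the sliding clamp, was at 870, 894 and 353 CPM, and its control libraries differed by far less than KO differed from either. Mcm10, which helps to start the helicase, was at 113, 128 and 44.4 CPM. Gins1, a subunit of the complex that activates the helicase, was at 74.3, 72.9 and 29.6 CPM. The clamp loader subunits differed among themselves. Rfc2 was at 130, 192 and 129 CPM, so KO was level with labelled WT, and Rfc3 was at 104, 118 and 80.9 CPM, while Rfc4 was at 88.8, 112 and 52.5 CPM and was called. Pole, the catalytic subunit of the leading-strand polymerase, was at 103, 138 and 80.0 CPM, and Rfc2, Rfc3 and Pole were the fork genes not called.

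Of the 9 licensing genes 7 were called, with medians of -1.0 and -1.08. Mcm3, a subunit of the helicase ring, was at 389, 414 and 153 CPM. Cdc6, which loads the ring, was at 58.1, 63.2 and 25.2 CPM. Orc1, the largest subunit of the origin recognition complex, was low everywhere, at 15.6, 13.1 and 7.73 CPM. The members not called were Mcm2, at 194, 288 and 137 CPM, and Cdt1, the partner of Cdc6, at 210, 208 and 167 CPM. Mcm2 stopped just short of the 1.5-fold limit, with -0.51 as the smaller of its log2 ratios, and Prim1, the primase, lay just past it at -0.59.

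All 5 chromatin genes were called, with medians of -1.34 and -1.32. Uhrf1 was at 1051, 1134 and 416 CPM, or 0.396 times labelled WT (0.379 to 0.414) and 0.367 times labelled Het (0.352 to 0.383). Slbp was at 551, 528 and 187 CPM, and Chaf1a, a subunit of the factor that places histones on new DNA, at 147, 142 and 56.5 CPM. In these 3 genes the control libraries again lay together, and KO alone was apart.

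The lower level in B-lineage-like cells was shared with the rest of the cell cycle. Of 52 other replication genes 25 were called lower, against 12.0% of genes, with medians of -0.58 and -0.83. Above both other libraries lay 5 of them, where 42.1% of genes did. Of 37 mitosis genes 31 were called lower, with medians of -0.99 and -1.30. Among 23 measured genes that control the step from G1 to S, 13 were called lower. E2f1, an activating E2F factor, was at 62.6, 68.3 and 36.6 CPM, and E2f2, another, at 351, 321 and 198 CPM. Ccne2, the cyclin that starts S phase, was at 39.3, 46.4 and 18.3 CPM. Cdkn1b, an inhibitor of the cyclin E kinase, went the other way at 231, 260 and 347 CPM, and Cdkn1a, another such inhibitor, was lower at 59.1, 30.8 and 7.40 CPM.

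Stage markers differed within the same cells. Igll1, the surrogate light chain of large pre-B cells, was at 820, 794 and 194 CPM, and Ms4a1, which encodes CD20 of later B cells, at 102, 132 and 353 CPM. The 12 B-lineage markers together were at 18032, 18085 and 26142 CPM. Of lists named for other classes, 10 granule-stage neutrophil markers summed to 10749, 6593 and 4421 CPM in B-lineage-like cells. The 10 conventional dendritic markers summed to 493, 694 and 1909 CPM. Of these lists 0 and 1 markers were at 0 in every library. The dendritic list holds H2-Aa, H2-Ab1 and Cd74, which B cells also express, so its sum does not mark dendritic cells here. The part of the stage markers and of these lists in the result was not tested.

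The B lineage was made of clusters with different shares in each library. Cluster 6, where members were highest, held 621, 486 and 100 cells, or 32.7%, 38.5% and 11.3% of the class, and cluster 11 held 363, 273 and 449 cells, or 19.1%, 21.6% and 50.6%. Clusters 5, 6 and 11, those with at least 50 cells in each library, were then given weights that were the same in all libraries. This left out cluster 20 (222, 150 and 5 cells, or 11.7%, 11.9% and 0.563% of the class) and cluster 26 (14, 0 and 0 cells). In cluster 20 the members summed to 8786 CPM in labelled WT and 7425 CPM in labelled Het. The setting thus joins weighting with leaving out these clusters, and their parts were not separated. A cluster's weight was its mean share of the UMIs over the libraries. The medians then shrank to -0.14 and -0.28 and 5 members were called. The share of all genes called under this weighting was not counted, so the 5 have no background. Of the settings tried, this weighting without clusters 20 and 26 moved the B-lineage medians most. Within cluster 6 alone the medians were -0.16 and -0.32, KO was below both other libraries for 23 of 33 members, where 42.5% of genes were, and 5 were called lower, against 7.75% of genes. Those 5 were Lig1, Uhrf1, Slbp, Pola2 and Mcm3. Lig1 was at 649, 470 and 276 CPM there, Uhrf1 at 1514, 1506 and 897 CPM, and Slbp at 801, 718 and 415 CPM. Pole was at 153, 194 and 229 CPM and Prim1 at 105, 125 and 131 CPM, so they were highest in KO, as was Cdt1. Mitosis genes in this cluster had medians of 0.02 and -0.17. In cluster 5 the members' medians were -0.41 and -0.22, and in cluster 11 they were 0.55 and -0.15, with labelled Het 0.60 above labelled WT, so the control libraries differed there more than KO did from either.

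Cells can also be set apart by their mitosis genes, which are no members. To make depths alike, cells were thinned to 3000 UMIs, leaving out 766, 290 and 323 shallower ones, and a cell counted as holding a list when it had at least 3 UMIs of it. Among B-lineage-like cells with mitosis UMIs (817, 649 and 207 cells) the members' medians were -0.73 and -0.82, and 23 of 33 were called lower, against 11.1% of genes. Among those with 0 mitosis UMIs (201, 220 and 240 cells) the medians were -0.04 and -0.26 over the 21 members that passed the filter on low levels.

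The share of B-lineage-like cells with at least 3 member UMIs differed less than the levels. It was 81.8%, 81.5% and 72.3% of thinned cells, so the KO share was 0.883 times labelled WT (0.839 to 0.929) and 0.886 times labelled Het (0.842 to 0.934). The mean number of member UMIs in such a cell was 28.5, 24.5 and 10.4. The share with mitosis UMIs was 61.3%, 54.5% and 27.3%. Cells with member UMIs and no mitosis UMIs to that minimum made up 23.2%, 28.9% and 48.9%. KO thus had the largest share of cells with members alone and the fewest member UMIs per cell. Mature neutrophil-like cells, which no longer divide, gave a background of 5.87%, 5.39% and 6.98% at median depths of 5569, 8187 and 11737 UMIs. Before thinning the B-lineage shares were 79.6%, 91.6% and 85.0%, and those of mature neutrophil-like cells 21.2%, 30.9% and 54.2%.

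**Figure D2:**
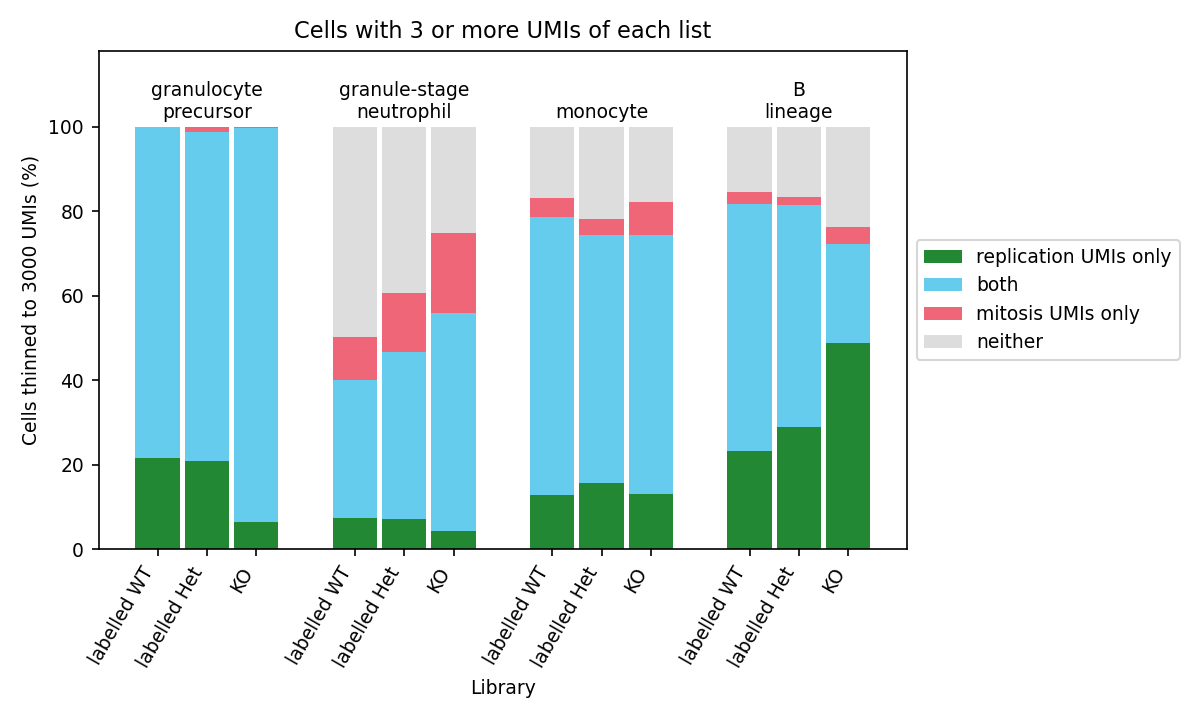
Share of cells, each thinned to 3000 UMIs, with at least 3 UMIs of the replication genes only, of both lists, of the mitosis genes only, or of neither, in 4 classes and 3 libraries (y axis, percent of cells). In B-lineage-like cells replication genes without mitosis genes take 48.9% in KO against 23.2% and 28.9%, and in granulocyte precursor-like cells 6.43% against 21.5% and 20.9%.

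Cells of the neutrophil lineage were the most numerous (6033, 5036 and 5376 cells), and the members did not show the B-lineage pattern there. Over the whole lineage 32 members passed the filter, with medians of 0.10 and -0.14 beside -0.04 and -0.08 for all genes. KO was above both other libraries for 7, where 35.0% of genes were, and below for 13, where 47.1% were, and 0 were called in either direction, against 2.76% of genes called higher and 8.67% called lower. The median against labelled Het turned to 0.14 under TMM factors and to 0.12 with each stage given the same weight in all libraries. The lineage was therefore described by stage.

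Granulocyte precursor-like cells (427, 525 and 280 cells), which make the primary granules, held member UMIs in nearly every thinned cell (100%, 98.8% and 99.6%). The members' medians were 0.05 and 0.04 beside -0.12 and -0.09 for all genes. TMM factors lifted them to 0.25 and 0.21, and clusters made with cell cycle genes turned the value against labelled WT to -0.071. KO was above both other libraries for 16 members, where 33.4% of genes were, and below both for 10, where 50.8% were. None of the 33 was called, against 3.05% of genes called higher and 12.0% called lower. Rrm1 stood highest, at 251, 268 and 382 CPM, or 1.52 times labelled WT and 1.43 times labelled Het. Rfc2 was at 142, 170 and 218 CPM. Uhrf1 stood lowest, at 518, 504 and 378 CPM, and Lig1 was at 355, 268 and 231 CPM with labelled Het between the other libraries. Most of these cells lay in cluster 9 (386, 455 and 272 cells), which all libraries shared, and there the medians were 0.06 and 0.05. The 8 precursor markers summed to 57460, 46353 and 34918 CPM, and their part in the result was not tested.

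In granule-stage neutrophil-like cells (4354, 3588 and 3519 cells), which fill the secondary granules, more members were higher in KO. The medians were 0.37 and 0.15 beside 0.04 and 0.00 for all genes. KO lay above both other libraries for 20 of the 32 members that passed, where 43.0% of genes did, and below both for 7, where 40.2% did. None was called, against 3.5% of genes called higher and 5.12% called lower. Labelled Het was 0.22 above labelled WT and lay between the other libraries. When classes came from a marker score of each cell, the medians were 0.25 and -0.038, so the direction against labelled Het turned. Markers of other classes were also higher in KO here, with the 8 granulocyte precursor markers at 324, 287 and 497 CPM and the 11 monocyte markers at 37.7, 42.5 and 210 CPM, and 0 of either list at 0 in every library. Their part in the result was not tested.

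Fork and licensing genes were the highest roles, with medians of 0.42 and 0.24 and of 0.33 and 0.15. Pole was at 26.7, 33.1 and 47.3 CPM, or 1.78 times labelled WT (1.67 to 1.90) and 1.43 times labelled Het (1.36 to 1.504). Rfc2 was at 48.5, 64.0 and 87.0 CPM and Rfc3 at 25.03, 31.2 and 43.3 CPM. Rrm1 was at 133, 176 and 226 CPM, while its partner Rrm2 was at 526, 463 and 516 CPM, with labelled WT and KO close together. Chromatin genes did not follow, with medians of -0.08 and -0.12. Uhrf1 was at 177, 204 and 150 CPM and Slbp at 247, 247 and 190 CPM, both lowest in KO. Clusters 0, 1, 2 and 14 held mostly control cells and clusters 4, 8 and 13 mostly KO cells, so library and stage cannot be told apart in them.

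The share of cells that held these genes was also larger in KO. Thinned granule-stage cells with at least 3 member UMIs made up 40.2%, 46.6% and 55.9%, so the KO share was 1.39 times labelled WT (1.33 to 1.46) and 1.20 times labelled Het (1.15 to 1.26). The mean per such cell was nearly level, at 15.8, 16.02 and 14.5 member UMIs. Cells with mitosis UMIs made up 42.8%, 53.5% and 70.6%. Within those cells (1861, 1906 and 2461) the members' medians were 0.02 and -0.08, with 13 above and 14 below both other libraries, where 36.9% and 43.4% of genes were, and 2 called lower, against 6.19% of genes. Before thinning the shares with member UMIs were 61.7%, 81.2% and 93.4%. In mature neutrophil-like cells (1252, 923 and 1577 cells) members were near the floor, and only 7 of 33 reached a mean of 10 CPM. Slbp, the highest, was at 66.7, 59.3 and 58.7 CPM, Rfc2 at 45.4, 34.4 and 53.9 CPM, and Mcm4 at 9.43, 12.3 and 18.7 CPM. Cdt1, at 7.79, 7.28 and 16.3 CPM, reached the minimum through KO alone, so nothing is counted over these 7. Controls and KO lay mostly in different clusters there (3 and 15 against 7 and 19).

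Set against mitosis genes, the members were lower in KO in both dividing neutrophil stages. UMIs of the 33 members per UMI of the 37 mitosis genes were 2.91, 2.41 and 1.91 in precursor-like cells, so KO was 0.654 times labelled WT (0.642 to 0.667) and 0.791 times labelled Het (0.779 to 0.803). In granule-stage cells the ratio was 0.741, 0.633 and 0.557. Labelled Het lay between the other libraries in both stages. In B-lineage-like cells the ratio was 1.04, 0.903 and 0.903, and in thinned cells KO was 1.00 times labelled WT and 1.10 times labelled Het, so no direction held there. Basophil or mast-like cells went the other way, at 1.89, 1.56 and 2.10, so KO was 1.11 times labelled WT (1.04 to 1.18) and 1.34 times labelled Het (1.27 to 1.42). In macrophage-like cells the ratio was 1.33, 0.744 and 0.840, with KO between the controls. The mitosis genes themselves had medians of 0.59 and 0.34 in precursor-like cells, with 33 of 37 above both other libraries and 7 called higher. In granule-stage cells they had medians of 0.62 and 0.26, with 32 above and 3 called higher. Of all genes 33.4% and 43.0% were above both in these stages, and 3.05% and 3.5% were called higher. Mki67, a protein of the surface of mitotic chromosomes, was at 238, 404 and 661 CPM in precursor-like cells. Cells of that stage with member UMIs only made up 21.5%, 20.9% and 6.43%, so the share that held mitosis UMIs as well was larger in KO.

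**Figure D3:**
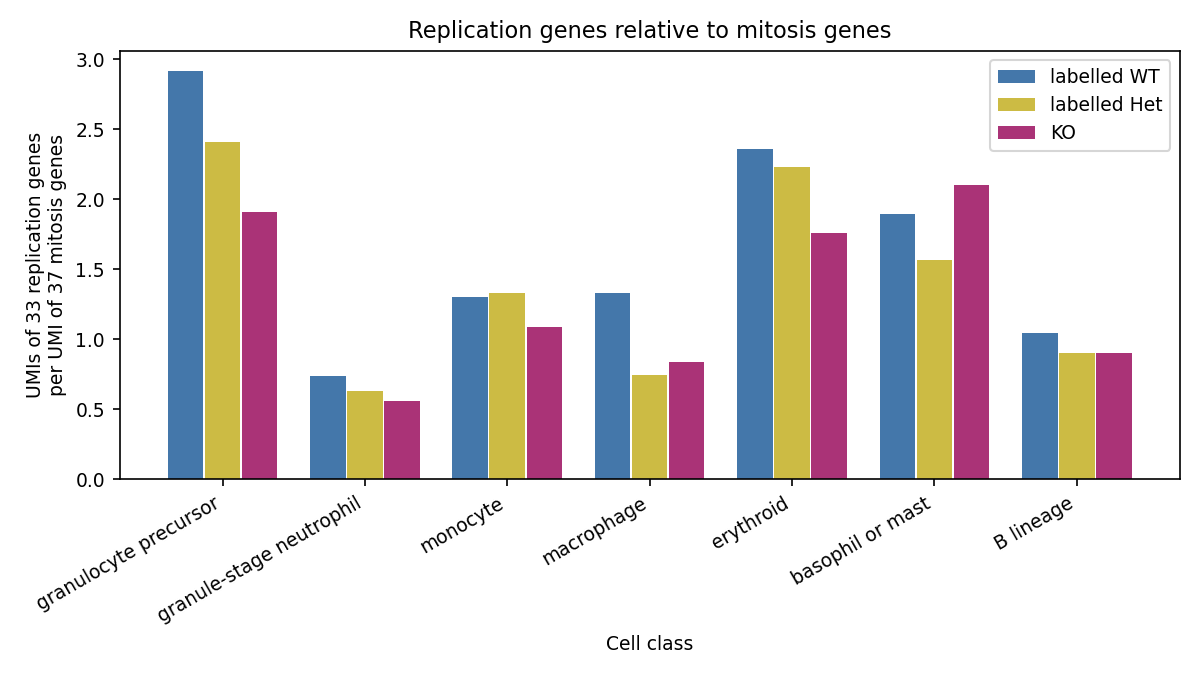
UMIs of the 33 replication genes per UMI of the 37 mitosis genes in 7 classes (y axis, ratio) for each library. KO is the lowest of the 3 libraries in granulocyte precursor-like (1.91), granule-stage neutrophil-like (0.557), erythroid-like (1.76) and monocyte-like cells (1.09), and level with labelled Het in B-lineage-like cells (0.903, against 1.04 in labelled WT). KO is the highest in basophil or mast-like cells (2.10) and lies between the controls in macrophage-like cells (0.840).

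Other genes of the cycle in these stages lay on both sides. Of 52 other replication genes 35 lay above both other libraries in precursor-like cells and 35 of 46 in granule-stage cells, where 33.4% and 43.0% of genes did. Called higher were 0 and 2 of them, against 3.05% and 3.5% of genes. Ccne1 and Ccne2 were highest in KO, at 35.0, 53.3 and 74.9 CPM and at 54.7, 56.5 and 88.9 CPM in precursor-like cells. E2f8, a repressing E2F factor, was at 99.9, 140 and 199 CPM there. Ung, which removes uracil from DNA, was lowest in KO, at 80.6, 55.8 and 23.6 CPM. Measured replication-dependent histone genes had medians of 0.61 and 0.57 in precursor-like cells, with 8 of 20 called higher, against 3.05% of genes. Slbp, which their messages need, was at 398, 349 and 291 CPM.

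Monocyte-like cells (758, 720 and 1205 cells) held members a little below the controls in KO. The medians were -0.19 and -0.12 beside -0.06 and -0.03 for all genes, 21 of 33 were below both other libraries, where 45.2% of genes were, 6 were above, where 38.3% were, and 0 were called, against 5.31% of genes called higher and 10.2% called lower. Under TMM factors the medians were -0.06 and -0.01. The roles separated more than the whole list did, with medians of -0.66 and -0.36 for chromatin genes. Uhrf1 was at 442, 382 and 257 CPM, or 0.582 times labelled WT and 0.673 times labelled Het, just short of the 1.5-fold limit. Lig1 was at 306, 210 and 164 CPM and Mcm3 at 453, 438 and 318 CPM. Rfc2, at 152, 177 and 206 CPM, Rfc3, at 72.5, 75.9 and 98.6 CPM, and Pole, at 77.9, 72.5 and 93.8 CPM, were highest in KO. Shares of thinned cells with member UMIs were 78.8%, 74.5% and 74.5%. The ratio of members to mitosis genes was 1.31, 1.33 and 1.09. Most control cells lay in cluster 12 (545, 434 and 1 cells) and most KO cells in cluster 10 (1, 25 and 1071), so library and cluster cannot be told apart there. The shared cluster 17 held 212, 261 and 59 cells, and its medians were -0.11 and -0.63 over the 23 members that passed, with 6 called lower, against 12.7% of genes, and labelled Het 0.43 above labelled WT. The 8 granulocyte precursor markers in monocyte-like cells summed to 12968, 12799 and 7956 CPM and the 11 monocyte markers to 9898, 10187 and 12626 CPM, with 0 of either list at 0 in every library, and their part in the result was not tested.

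Erythroid-like cells (118, 258 and 136 cells) gave a like pattern in a smaller class that lay mostly in 1 shared cluster. The medians were -0.33 and -0.20 beside -0.04 and -0.02 for all genes, with 21 of 33 members below both other libraries, where 43.0% of genes were, 6 above, where 38.4% were, and 0 called, against 6.86% of genes called higher and 9.93% called lower. Lig1 was at 479, 284 and 197 CPM, Uhrf1 at 542, 417 and 285 CPM, and Slbp at 454, 337 and 251 CPM. In these genes labelled Het was also well below labelled WT. Mcm2, at 322, 392 and 430 CPM, and Rrm1, at 412, 419 and 483 CPM, were highest in KO. The ratio of members to mitosis genes was 2.36, 2.23 and 1.76.

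Basophil or mast-like cells (72, 74 and 57 cells) had medians of -0.34 and -0.11 beside 0.09 and 0.05 for all genes, with 21 of 33 below both other libraries, where 33.6% of genes were, and 7 above, where 43.2% were. Called lower were 6 members and called higher 0, against 7.94% and 9.31% of genes. The 6 were Cdc6, Rrm2, Lig1, Slbp, Tk1 and Chaf1a. Rrm2 was at 287, 169 and 87.0 CPM and Lig1 at 246, 155 and 99.3 CPM, both with labelled Het between. Cdc6, at 38.3, 39.8 and 18.9 CPM, had level controls. In this class 29 of 37 mitosis genes were below both other libraries as well. Its own 9 markers summed to 26664, 17977 and 14162 CPM, the 8 granulocyte precursor markers to 17126, 20246 and 10471 CPM, and the 9 mature neutrophil markers to 921, 797 and 2024 CPM, with 0, 0 and 1 of them at 0 in every library. Their part in the result was not tested.

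Macrophage-like cells (73, 74 and 119 cells) held few member UMIs, with a mean of 4.12, 2.02 and 2.72 per thinned cell, and 27 members passed, of which Gins2 did so through labelled WT alone and Pole through labelled Het alone. Their medians were -0.57 and -0.17 beside 0.04 and 0.13, with labelled Het 0.58 below labelled WT, so the controls differed as much as KO and labelled WT did. The value against labelled Het turned to between 0.12 and 0.34 when doublets were kept, cells were thinned or classes came from a marker score. KO was below both other libraries for 13 of the 27, where 30.2% of genes were, and above for 6, where 43.2% were. Gins2 is among the 13, but it entered through labelled WT alone, so its place there is no evidence of a lower level. The medians include Gins2 and Pole too. Called higher were 0, against 11.9% of genes, and the 4 members called lower, against 8.53%, were Tk1, Uhrf1, Rrm2 and Tyms, with Tk1 at 61, 25 and 9 UMIs and Uhrf1 at 42, 40 and 26 UMIs. The number called lower was 8 under TMM factors, under median-of-ratios size factors and with clusters made with cell cycle genes, and 1 with a filter at 50 CPM or with a marker score. In thinned cells 2 were called higher beside 4 lower, and with the marker score 2 were called higher. The shares of all genes called under these other settings were not counted, so these numbers have no background. Of the macrophage-like clusters, cluster 21 held only KO cells (92) and cluster 35 none of them.

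Across the 7 classes that share no cells, a few members were lowest in KO each time. These classes come from the same 3 libraries, so they are no independent repeats. In all 7 classes 27 members passed the filter, and 4 of them, Lig1, Uhrf1, Slbp and Chaf1a, were below both other libraries in every class, where 7.27% of 6082 genes were. Under TMM factors and median-of-ratios size factors Lig1, Uhrf1 and Slbp stayed below in all 7, and Chaf1a was below in 5 and 6. KO was below both in at least 6 classes for 7 members, which add Mcm3, Gins2 and Pola2, where 17.2% of genes were. The 6 classes of Gins2 include macrophage-like cells, where it passed through labelled WT alone, so its place here depends on that class. Gins2 was below in 5 classes under both other scalings. Labelled Het was also below labelled WT in all 7 classes for Lig1 and Slbp, along with Mcm7, Rrm2 and Tk1. The share of all genes with labelled Het below labelled WT in all 7 classes was not counted, so this has no background.

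Some members lay above both other libraries in several classes outside the B lineage, but a smaller share of members did so than of all genes. KO was above both other libraries in at least 4 of 7 classes for 6 of 27 members, where 40.2% of genes were. They were Mcm2, Mcm4, Rfc2, Rfc3, Pole and Rrm1. It was above in all 7 for 0 members, where 12.3% of genes were. Genes of related function did not all share a side. In the helicase ring Mcm2 was above in 5 classes (4 under TMM factors) while Mcm3 was below in 6. In the polymerases Pole was above in 5 classes while Pola2 was below in 6. The 3 clamp loader subunits lay on the same side, with Rfc2 and Rfc3 above both other libraries in 5 of 7 classes (4 and 6 under TMM factors) and Rfc4 in 5 of the 6 in which it passed.

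**Figure D4:**
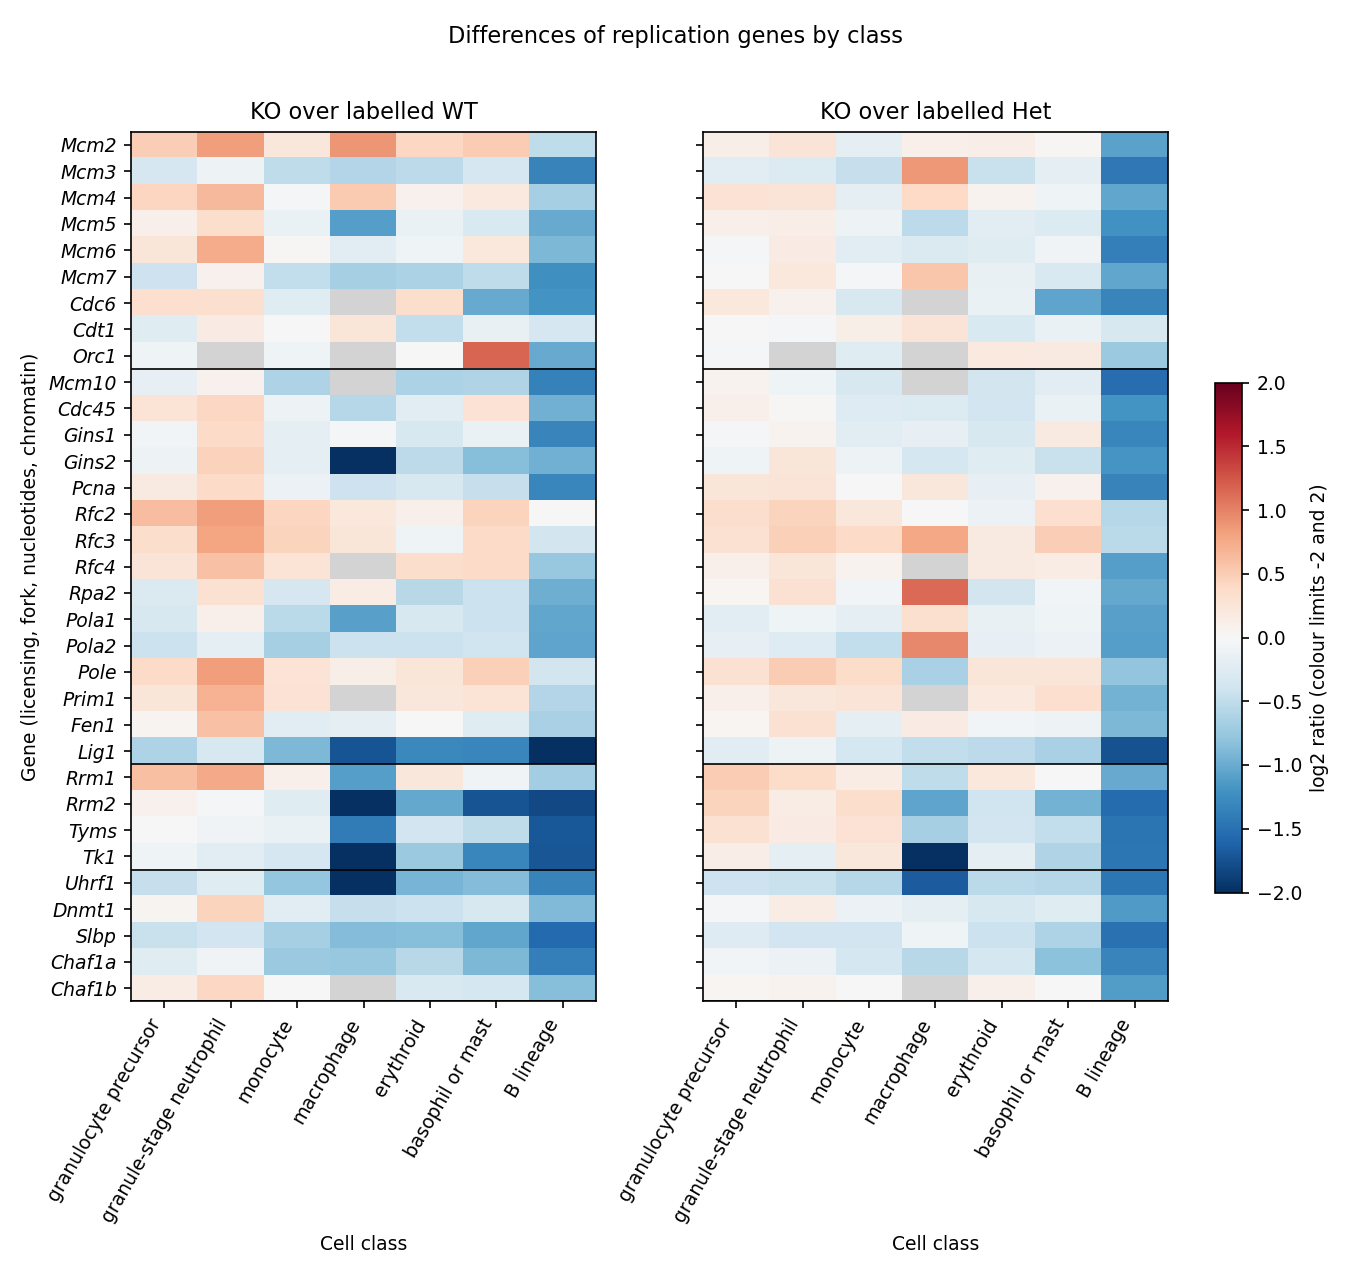
Log2 ratio of KO over labelled WT and of KO over labelled Het for the 33 replication genes (rows, by role) in 7 classes (columns), with colours limited to -2 and 2 and grey where a gene did not pass the minimum of 10 CPM. Lig1, Uhrf1, Slbp and Chaf1a are below 0 in every class on the CPM scale (Chaf1a in 5 under TMM factors and 6 under median-of-ratios size factors), and the B-lineage column is below 0 for all 33 genes, down to -2.10 for Lig1 against labelled WT.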

How the data were processed

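Single-cell RNA was read with the 10x Flex fixed RNA assay from sorted liver cells, per the labels' protocols. The authors deposited whole-number UMI counts per gene and barcode, made with Cell Ranger 7.0.0 against mm10, per the submitters' processing notes. The sources used here do not state the probe set version or any further barcode filter. The 33 members and the other gene lists were chosen with earlier results of these data known.

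Barcodes with under 200 genes would have been dropped, but there were 0. Scrublet (scanpy 1.11.5), run on each library at its own threshold, removed 2.84%, 2.33% and 3.61% of barcodes as doublets, and 9327, 7814 and 7947 cells stayed. Clusters (2000 variable genes, 40 principal components, 20 neighbours, Leiden with leidenalg 0.10.2 at resolution 1.0, split again at 0.5) were made without members, other cell cycle genes, Pex2 and sex-linked genes, which gave 45. A cluster took the class with the most markers among its top 30 genes by fold, with at least 3 detected; this naming rule was chosen after the clusters were seen. Classes were used with at least 50 cells in each library. Stem and progenitor-like cells (98, 105 and 19), dendritic, eosinophil and natural killer-like cells were too few, and clusters without a name held 56, 49 and 15 cells.

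UMIs were summed per library and class and given as CPM of the class total, with exact Poisson intervals, exact conditional binomial intervals for ratios and Clopper-Pearson intervals for shares (scipy 1.17.1). PCR copies are collapsed by UMI, yet cells of 1 library are no replicates. Before a log2 ratio was taken, each sum gained 0.5 counts. Genes with a mean of at least 10 CPM over the 3 libraries entered medians and counts. All members could be named, those called with the largest smaller ratio first, and up to 4 genes of each other list per class by the same size rule, besides a fixed set of cyclins, inhibitors and E2F genes. Intervals and calls were tested on simulated Poisson counts. These hold no variation between cells or libraries, so the check covers counting error only. No test between genotypes was possible with 1 library each. In R 4.3.3, edgeR 4.0.16 supplied TMM factors and DESeq2 1.42.0 size factors by median of ratios, both for scaling alone. Other alternatives were filters, thinning, other cell groupings and doublets kept. In the weighted settings a stage or cluster had the same weight in all libraries, its mean share of the UMIs over them. The weights of B-lineage clusters and the settings of the ratio of members to mitosis genes were added after seeing the data. Promoters came from RefSeq tables of GRCm38.p6. Of the lists, 1 cell cycle gene and 2 markers were not analysed here.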

Additional observations from a re-analysis of the deposited data

Results flagged for a closer look

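In the main setting the members' median log2 ratio in the neutrophil stages lay apart from that in the B lineage, on the opposite side of 0. The side was not firm. In granulocyte precursor-like cells the medians were only 0.05 and 0.04, and clusters made with cell cycle genes turned the sign against labelled WT. In granule-stage cells a marker score of each cell turned the sign against labelled Het. For KO over labelled WT the median in granulocyte precursor-like cells was 1.05 above that in B-lineage-like cells, and for KO over labelled Het it was 1.16 above. In granule-stage neutrophil-like cells the corresponding gaps were 1.37 and 1.28. These gaps depend on which B-lineage clusters are used and how they are weighted. With clusters 5, 6 and 11 alone, given the same weights in all libraries, the B-lineage medians were -0.14 and -0.28. The gaps were then 0.19 and 0.32 for granulocyte precursor-like cells and 0.50 and 0.43 for granule-stage cells. Each side is 1 library against another, so these differences between classes were not tested.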

How the results depend on the processing

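No paired analysis was possible because each genotype has 1 library, so leaving out a library was not an option either. The low median of the whole B lineage kept its direction under every scaling, filter, grouping and weighting tried, but not its size. With cluster weights the same in all libraries it was only -0.14 and -0.28. Within cluster 11 alone the median against labelled WT was 0.55. Dropping the filter on low levels left 36 of 36 values within the limits used. Below, pairs of values are KO over labelled WT and KO over labelled Het, and counts are members called. The shares of all genes called under these settings were not counted.

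TMM factors moved the median log2 ratio of the members to 0.11 and 0.030 over all cells (1 called lower), 0.31 and 0.14 in the neutrophil lineage, 0.25 and 0.21 in precursor-like cells (1 called higher), 0.45 and 0.22 in granule-stage cells and -0.058 and -0.011 in monocyte-like cells. Median-of-ratios size factors gave 0.099 and -0.0015 over all cells (1 called lower), 0.31 and 0.10, 0.25 and 0.20 (1 called higher), 0.44 and 0.23 (1 called higher) and -0.069 and -0.037 in the same classes. Both scalings called 8 members lower in macrophage-like cells. They multiply all genes of a library by 1 factor, which by construction moves every median alike.

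A filter at 50 CPM gave -0.23 against labelled WT over all cells and 1 member called lower in macrophage-like cells. Sums of cells thinned to 3000 UMIs gave -0.30 and -0.41 over all cells (5 called lower), 0.17 and -0.22 in the neutrophil lineage, 0.13 against labelled Het in precursor-like cells, 0.48 against labelled WT in granule-stage cells (1 called higher), -1.49 and -1.39 in B-lineage-like cells, -0.34 against labelled Het in erythroid-like cells (3 called lower) and -0.29 against labelled WT in monocyte-like cells. In macrophage-like cells thinning turned the value against labelled Het to 0.33 (2 called higher), and in basophil or mast-like cells 2 were called higher. Thinning weights every cell alike.

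Clusters made with cell cycle genes gave 0.018 and -0.19 in the neutrophil lineage, -0.071 against labelled WT in precursor-like cells, 0.25 and 0.015 in granule-stage cells, and 8 called lower in macrophage-like cells. With doublets kept, the neutrophil lineage was at 0.028 against labelled WT, granule-stage cells at 0.026 and macrophage-like cells at 0.34 against labelled Het, with 2 called lower in erythroid-like and 1 in monocyte-like cells. A per-cell marker score gave 0.25 and -0.038 in granule-stage cells and 0.12 against labelled Het in macrophage-like cells (2 called higher, 1 lower). Neutrophil stages given the same weights in all libraries gave 0.23 and 0.12. B-lineage clusters 5, 6 and 11 weighted that way, with clusters 20 and 26 left out, gave -0.14 and -0.28 (5 called lower).

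The ratio of shares of cells with member UMIs in granule-stage cells against labelled WT was 1.29 with at least 2 UMIs and 1.27 with cells thinned to 5000. It was 1.31 and 1.13 with the marker score, 1.25 and 1.09 with cell cycle genes in the clustering, and 1.11 against labelled Het with doublets kept. In B-lineage-like cells it was 0.970 and 0.938 with at least 2 UMIs, 0.627 and 0.648 with at least 5, and 0.945 and 0.951 when thinned to 5000. In the neutrophil lineage it was 1.11 against labelled WT when thinned to 5000 and 0.916 against labelled Het with at least 5 UMIs. It was 0.887 against labelled WT in monocyte-like cells with at least 5 UMIs and 0.989 against labelled WT in precursor-like cells with cell cycle genes in the clustering.

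For members per mitosis UMI, KO relative to the controls was as follows. With cell cycle genes in the clustering it was 0.652 and 0.751 in the neutrophil lineage, 0.621 and 0.811 in precursor-like cells, 0.845 against labelled Het in granule-stage cells, and 0.909 and 0.869 in monocyte-like cells. With doublets kept it was 0.659 and 0.759, 0.620 against labelled WT, 0.734 and 0.842, and 0.885 and 0.856 in the same classes, and 0.832 and 0.955 in B-lineage-like cells. With the marker score it was 0.785 and 0.716 against labelled Het in the lineage and in precursor-like cells, 0.721 and 0.811 in granule-stage cells, and 0.883 and 0.851 in monocyte-like cells. Thinning gave 0.763 against labelled Het in the lineage, 0.681 against labelled WT in precursor-like cells, 0.719 and 0.831 in granule-stage cells, 0.828 against labelled Het in monocyte-like cells, and 1.00 and 1.10 in B-lineage-like cells, where the direction turned. Other causes of these shifts were not tested.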
